A study of Mus musculus with 10 samples.

Results

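Long intergenic noncoding RNAs (lincRNAs) were studied in 3 skeletal muscles of the mouse, the extensor digitorum longus (EDL), the psoas, and the soleus. The members are the genes of biotype lincRNA in GENCODE M21, an annotation of the mouse genome GRCm38, that lie on autosomes and reached a mean of at least 2 CPM (the count of a gene over the library total, scaled to a common total) in at least 1 muscle. They were thus chosen by their measured level, and a difference between muscles of lincRNAs near this limit is in part set by the choice. H19, Meg3, Rian, Mirg, 2310065F04Rik, and Gm42418 were left out by name. The rule took 133 of the 16112 genes in the files. The files held 348 lincRNA genes, of which 11 lay off the autosomes, 5 were among those left out by name, and 199 stayed under 2 CPM in each muscle.

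The 10 libraries were made from 3 EDL, 3 psoas, and 4 soleus samples of wild-type mice from a colony of strain B6C3Fe a/a-Ttnmdm/J, which carries the mdm allele of titin, aged between 32 and 54 days. EDL and psoas are fast-twitch muscles and soleus holds many slow-twitch fibers. Of the 7 animal codes in the labels, psoas 1 and soleus 1 carry the same one, as do EDL 3 and soleus 2, and psoas 3 and soleus 4, the study names fewer mice than codes, so that other libraries may also share a mouse, and the tissues were taken from mice used in another study. EDL 1 and 2, psoas 1 and 2, and soleus 1 were male, the sex of soleus 3 is not given, and the others were female. RNA was depleted of ribosomal and globin RNA rather than selected for poly(A) tails, so that transcripts without a tail could also be counted.

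A lincRNA is transcribed by RNA polymerase II from its own locus, is often spliced and capped, and is annotated as noncoding, although small peptides have been described from some. Some lincRNAs stay in the nucleus, such as Malat1 in nuclear speckles, which hold splicing factors, and Neat1, the RNA around which paraspeckles form. Others serve as precursors of microRNAs (miRNAs), host small nucleolar RNAs (snoRNAs) in their introns, or share a promoter region with a neighboring coding gene. In skeletal muscle, linc-MD1, the host of miR-206 and miR-133b, is known for its part in myoblast differentiation.

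The library totals lay between 12737971 counts (soleus 3) and 50431713 counts (psoas 1), so that the 3 counts which a count of 0 allows amounted to 0.0565 to 0.239 normalized CPM. Such limits cover counting error only. Normalized CPM are CPM rescaled with the TMM factors of edgeR, and every level below is in this unit unless another is named. The muscle labels were checked with marker lists. The 8 slow myofiber genes summed to between 19712 and 31555 in the soleus libraries and to at most 369 in any other. The 10 tendon genes summed to between 807 and 866 in EDL, 32.4 and 84.9 in psoas, and 119 and 568 in soleus. The share of counts taken by Lars2 was 7.25% to 12.4% in EDL 1, psoas 1, psoas 2, and soleus 1, and at most 0.0760% elsewhere. In whole muscle, fewer cells of a type and less RNA per cell cannot be told apart.

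Of the 133 lincRNAs, 75 reached 2 CPM in all 3 muscles, 15 in a pair of them, and 43 in 1 muscle, namely 22 in EDL, 5 in psoas, and 16 in soleus. The members just inside the limit were 2810429I04Rik, Gm29408, and Gm17586, with 2.01, 2.02, and 2.03 CPM in their highest muscle, and those just outside were 2310016D23Rik, Gm21781, and Gm36823 with 1.91, 1.85, and 1.82. The median summed exon length was 2527 bp, against 2072 bp in the 199 lincRNAs of the files under the limit and 1038 bp in all 5854 lincRNA genes of GENCODE M21. A single exon block was annotated for 20 members (15.0%), and the median GC content of 46.1% lay near the 46.0% of all annotated lincRNAs.

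The sequence of many members recurs elsewhere in the transcriptome, which matters for the counts because the handling of reads with several alignments is not given in the sources used here. At least 50% of the distinct 31-base words of 23 members were also found in transcripts of other genes, while 55 members shared less than 5%. The median was 8.29%. Gm7292, on chromosome 6 (117716342 to 117718868), had 85.9% of its words in 2900097C17Rik, which RefSeq names Norad, a cytoplasmic RNA that binds PUMILIO proteins. Gm10076 had 82.2% of its words in Rpl41, a ribosomal protein gene. Levels of such genes are uncertain.

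The sequences of the mature miRNAs inside members are shown because these lincRNAs are read below as their hosts. They were taken from RefSeq (GRCm38.p6), with the seed (bases 2 to 8) in capitals. Gm28653 spans Mir206 and Mir133b on chromosome 1, the locus known as linc-MD1, and 6720427I07Rik spans Mirlet7a-1, Mirlet7f-1, and Mirlet7d on chromosome 13. E130102H24Rik spans Mir101a on chromosome 4, and 2900076A07Rik spans Mir1839 on chromosome 7. The last of the 5 hosts, 2310016D03Rik, spans the predicted miRNA Gm25865. The 3 let-7 miRNAs have the same seed, and those of the others all differ from it and from one another.
miR-206-3p: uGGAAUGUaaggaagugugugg
miR-133b-3p: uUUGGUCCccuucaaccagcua
let-7a-5p: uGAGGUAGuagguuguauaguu
let-7f-5p: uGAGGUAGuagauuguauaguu
let-7d-5p: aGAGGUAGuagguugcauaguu
miR-101a-3p: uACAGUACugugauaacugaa
miR-1839-5p: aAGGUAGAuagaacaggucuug

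The members together took 0.699%, 0.784%, and 0.493% of the counts in EDL 1, 2, and 3. In psoas 1, 2, and 3 this share was 0.340%, 0.322%, and 0.429%, and in soleus 1 to 4 it was 0.292%, 0.393%, 0.32%, and 0.366%. Each EDL library lay above all psoas and soleus libraries. No test is given of this share, because the level of the members in these libraries chose them, with 22 members taken through EDL alone, 16 through soleus alone, and 5 through psoas alone. Malat1 alone took 0.395% and 0.424% of the counts in EDL 1 and 2 and 0.0344% to 0.0554% in the other libraries. Without it, the difference of psoas minus EDL was -0.0523 percentage points in place of -0.295, and that of soleus minus EDL was -0.0664 in place of -0.316. The EDL libraries then no longer lay above all others, with 0.304% in EDL 1, 0.380% in psoas 3, and 0.354% in soleus 2. The shares are of all counts, including those of Lars2, which took a large part in some libraries of each muscle.

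Per kilobase of exon, the mean level was highest in Malat1 in EDL, with 398 normalized CPM per kb, and in Gm26917 in psoas and soleus, with 380 and 240. The order of the genes was not tested. Gm26917 lies on chromosome 17 (39843013 to 39846341), 617 bp from Gm42418, a gene left out by name. Its normalized CPM were 832 to 1140 in EDL, 977 to 1654 in psoas, and 638 to 932 in soleus. Another abundant member was 1700020I14Rik, which RefSeq names Oip5os1 and which is also known as Cyrano, an RNA that brings about the decay of miR-7. It had 95.6, 140, and 91.8 normalized CPM per kb in EDL, psoas, and soleus. None of these muscle differences passed the test for Gm26917 or 1700020I14Rik (adjusted p from 0.0808 to 0.921).

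The comparisons of muscles ask which lincRNAs differ between the fast EDL and psoas and the slow soleus. All 10 libraries entered 1 model in edgeR (quasi-likelihood test, Benjamini-Hochberg adjustment over all 16112 genes), and a gene was called where it changed over 2-fold with an adjusted p below 0.01. In psoas vs. EDL, 4 of the 133 lincRNAs were called, 1 higher and 3 lower in psoas, beside 2.11% of all genes (0.54% higher and 1.57% lower). In soleus vs. EDL, 21 were called, 9 higher and 12 lower, beside 5.77% of all genes (3.59% higher and 2.18% lower). In soleus vs. psoas, 13 were called, 7 higher and 6 lower, beside 5.69% (2.99% higher and 2.71% lower). At an unadjusted p under 0.05 these counts were 42, 71, and 45 of 133, beside 4679, 5646, and 4574 of the 16112 genes. The median log2 fold change of the members was -0.13, -0.30, and -0.13, against 0.01, -0.05, and 0.02 for all genes tested.

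These counts are descriptions, since a lincRNA that reached 2 CPM in only 1 or 2 muscles had in part to differ between them. Among the 75 members over 2 CPM in all 3 muscles, 1, 10, and 3 were called in the same order of comparisons. In all, 28 lincRNAs were called at least once and 105 never, and 8 were called in both comparisons of soleus, 6 of them higher in soleus. The shares of all genes for these counts were not taken, so whether they are particular to lincRNAs is not known. The libraries of the muscles compared did not overlap for 26, 53, and 37 of the 133 members, beside 29.6%, 29.5%, and 25.8% of all genes. Both comparisons of soleus share its libraries, and both comparisons with EDL share those of EDL. The soleus vs. EDL count rested on the EDL libraries, with 39 lincRNAs called (11 higher) without EDL 3, 9 (6 higher) without EDL 1, and 12 (7 higher) without EDL 2. The shares of all genes called in these fits are not given here. With read trimming as a covariate, 7 were called in this comparison, 4 of them higher and 6 shared with the 21. Only EDL 1 and 2 and psoas 1 and 2 were trimmed, and no soleus library was. This covariate is thus partly confounded with muscle, and a call lost with it, here or below, is not thereby shown to come from trimming. The 6 were 2310008N11Rik, 4632428C04Rik, 5730419F03Rik, A730036I17Rik, Gm12319, and Gm5532, and all others of the 21 were lost. In soleus vs. psoas, the calls of 2310020H05Rik, 9830004L10Rik, D630024D03Rik, Gm26764, and Tmem250-ps were lost with this covariate.

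**Figure D1:**
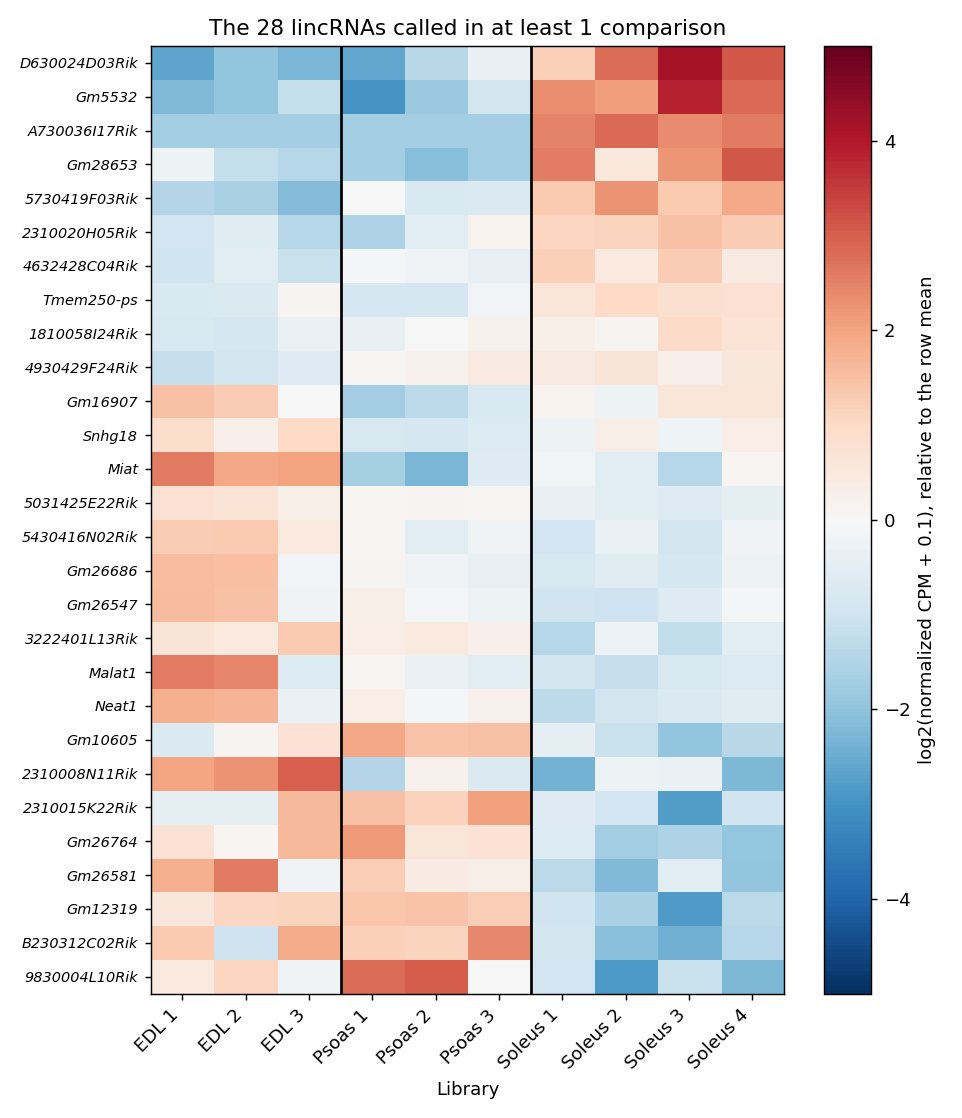
The 28 lincRNAs called in at least 1 comparison (rows) in the 10 libraries (columns), as log2(normalized CPM + 0.1) relative to the mean of the row. Rows are ordered from those highest in soleus to those lowest in soleus, and values run from -2.93 (blue) to 4.15 (red).

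The 6 lincRNAs that were higher in soleus than in both other muscles came from 4 chromosomes. Gm5532, on chromosome 1 (155520173 to 155527143), had 0.724, 0.867, and 1.54 normalized CPM in EDL 1 to 3 and 0.396, 0.951, and 1.91 in psoas 1 to 3. In soleus 1 to 4 it had 19, 15.9, 54.9, and 26.5. All soleus libraries lay above all others, with a log2 fold change of 4.86 ± 0.59 (SE) vs. EDL (adjusted p = 0.0004) and 4.87 ± 0.61 vs. psoas (adjusted p = 0.000478). Both calls were kept without each library in turn, with 5.56 vs. psoas without psoas 3. With EDL 3 as the single EDL library, neither this lincRNA (adjusted p = 0.0692) nor any of the other 20 calls vs. EDL passed the test.

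D630024D03Rik, on chromosome 11 (31790113 to 31824524), was close to absent outside soleus. It had 0.0234, 0.0942, and 0.0549 normalized CPM in EDL 1 to 3, and 0.0264, 0.190, and 0.496 in psoas 1 to 3. Soleus 1 to 4 had 1.64, 5.23, 13.4, and 6.44, so that the groups did not overlap while the soleus libraries themselves spread widely. It was higher by 6.67 ± 0.93 on the log2 scale vs. EDL (adjusted p = 0.00091) and 5.11 ± 0.87 vs. psoas (adjusted p = 0.00273). The call vs. psoas was lost without psoas 1 (adjusted p = 0.0129) or psoas 2 (0.018), and both calls were lost with read trimming as a covariate (adjusted p = 0.0266 and 0.0349). Leaving out 1 library moved the log2 fold change to between 6.05 (without soleus 3) and 7.42 (without EDL 2) vs. EDL, and to between 4.26 (without psoas 1) and 6.30 (without psoas 3) vs. psoas, with 4.49 without soleus 3.

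A730036I17Rik, on chromosome 2 (129218969 to 129235604), had no count in any EDL or psoas library. In soleus 1 to 4 it had 1.71, 2.24, 1.59, and 1.90 normalized CPM. Against the floor of 3 counts per library, averaged over a group, it was at least 19.2-fold higher in soleus than in EDL (adjusted p = 0.000397) and at least 11.6-fold higher than in psoas (adjusted p = 0.00058). Both calls were kept without each library in turn.

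Gm28653, the host of miR-206 and miR-133b shown above, lies on chromosome 1 (20669882 to 20684298). It had 0.747, 0.339, and 0.275 normalized CPM in EDL 1 to 3 and 0.211, 0.127, and 0.212 in psoas 1 to 3. Soleus 1 to 4 had 5.75, 1.35, 4.55, and 8.6, and soleus 2 was the lowest of them, yet above all EDL and psoas libraries. On the log2 scale soleus was higher by 3.41 ± 0.59 vs. EDL (adjusted p = 0.00316) and 4.70 ± 0.69 vs. psoas (adjusted p = 0.00116). The call vs. EDL was lost without EDL 2 (adjusted p = 0.0224), and both were lost in limma-voom (0.0226 and 0.0457). The mature miRNAs were not measured, and the counts of Gm28653 do not show their level.

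5730419F03Rik, on chromosome 1 (78595031 to 78609508), had a graded pattern. Its normalized CPM were 0.420, 0.377, and 0.220 in EDL 1 to 3, 1.35, 0.761, and 0.779 in psoas 1 to 3, and 3.49, 6.70, 3.51, and 5.33 in soleus 1 to 4. No 2 muscles overlapped. Soleus differed by a log2 fold change of 3.74 ± 0.38 vs. EDL (adjusted p = 0.000144) and 2.26 ± 0.35 vs. psoas (adjusted p = 0.00152), while psoas vs. EDL did not pass the test (1.48 ± 0.39, adjusted p = 0.0352). The call vs. psoas was lost without psoas 2 (0.0114).

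2310020H05Rik, on chromosome 13 (99076526 to 99087921), was detected in all muscles. It had 2.13, 2.71, and 1.48 normalized CPM in EDL 1 to 3, 1.35, 2.79, and 4.67 in psoas 1 to 3, and 8.89, 9.00, 11.7, and 10.2 in soleus 1 to 4. The lowest soleus library was above the highest of the others. The log2 fold change was 2.22 ± 0.37 vs. EDL (adjusted p = 0.00264) and 1.80 ± 0.37 vs. psoas (adjusted p = 0.0079). The call vs. EDL was lost without EDL 1 (0.0169), and that vs. psoas was lost in 8 of the 10 fits that left out 1 library, with an adjusted p of up to 0.0333 (without psoas 2). Both were lost with read trimming as a covariate (adjusted p = 0.0468 and 0.0431).

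**Figure D2:**
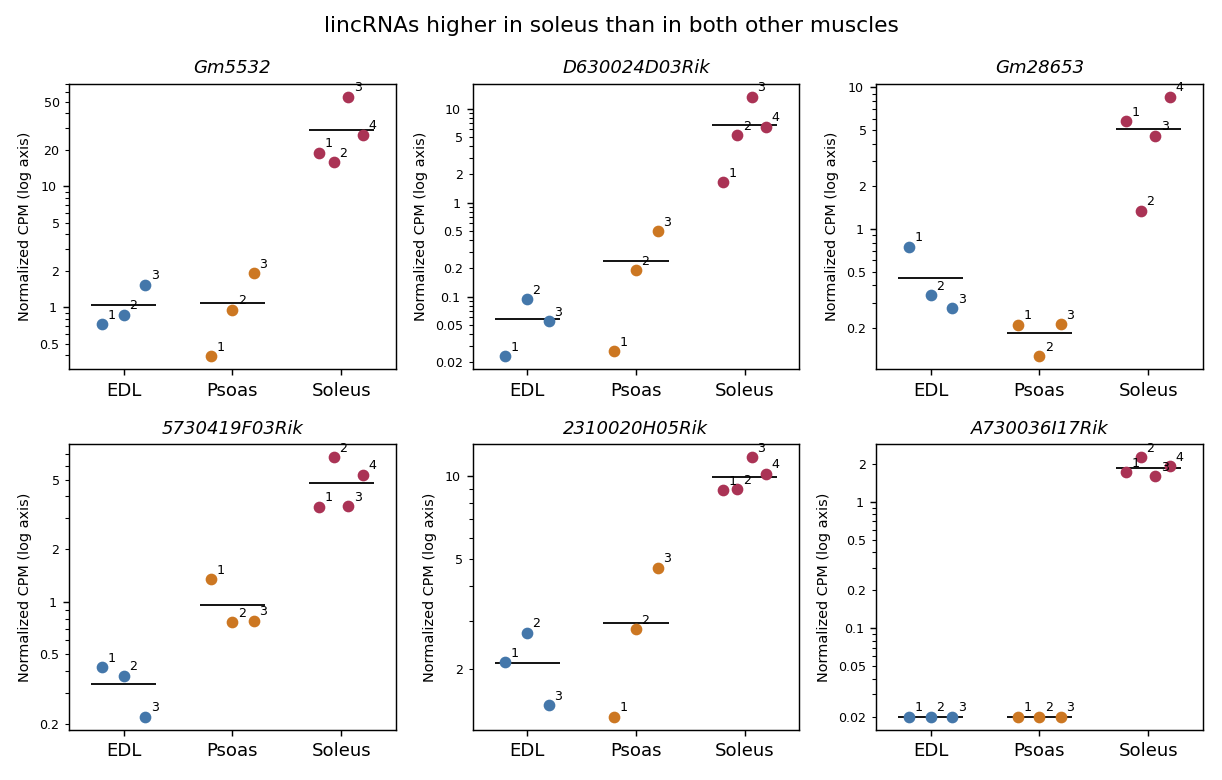
Normalized CPM (log axes) of the 6 lincRNAs called higher in soleus than in EDL and than in psoas. Each numbered point is 1 library, the lines are means, a count of 0 is drawn at 0.02, and each soleus library lies above all EDL and psoas libraries.

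Other lincRNAs were higher in soleus in 1 of the comparisons. 4632428C04Rik had 1.92 to 2.92 normalized CPM in EDL, 3.19 to 3.96 in psoas, and 5.86 to 10.4 in soleus, and was called vs. EDL (log2 fold change 1.78 ± 0.28, adjusted p = 0.00169). 4930429F24Rik had 2.20 to 3.19 normalized CPM in EDL, 5.25 to 6.80 in psoas, and 6.06 to 7.96 in soleus. It was the only lincRNA called higher than in EDL in both psoas (1.17 ± 0.22, adjusted p = 0.00937) and soleus (1.43 ± 0.21, adjusted p = 0.00112). 1810058I24Rik, in which a small mitochondrial peptide has been described, was called in soleus vs. EDL (1.19 ± 0.24, adjusted p = 0.00608), and Tmem250-ps in soleus vs. psoas (1.41 ± 0.27, adjusted p = 0.00526). Without EDL 1, the adjusted p of 4632428C04Rik was 0.0148 and that of 1810058I24Rik was 0.0437. Of the 10 fits without 1 library, 8 lost the call of 4930429F24Rik in psoas vs. EDL (adjusted p up to 0.0458, without EDL 1) and 5 lost that of Tmem250-ps (up to 0.0274, without psoas 1).

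The promoters of 4 soleus-high lincRNAs are shown because these genes were all called higher in soleus. Of the 28 called lincRNAs, 16 have a promoter in the RefSeq table used here (GRCm38.p6, 250 bases before to 50 after the start). The RefSeq and GENCODE starts of these 4 lay 0 to 32 bp apart. Capitals mark matches to CANNTG, the E-box bound by MyoD and related factors, and to the core of the MEF2 motif, which is CTA and TAG with any 4 bases between them. Both motifs read alike on the strands and were searched on both. CANNTG was found in each of the 4, but also in 72.3% of all 32851 promoters. The MEF2 core was found in the promoter of 2310020H05Rik alone of the 4, and in 3.69% of all promoters. A match is a description of these letters and not a binding site.
Gm5532, chr1:155527062-155527361, minus strand: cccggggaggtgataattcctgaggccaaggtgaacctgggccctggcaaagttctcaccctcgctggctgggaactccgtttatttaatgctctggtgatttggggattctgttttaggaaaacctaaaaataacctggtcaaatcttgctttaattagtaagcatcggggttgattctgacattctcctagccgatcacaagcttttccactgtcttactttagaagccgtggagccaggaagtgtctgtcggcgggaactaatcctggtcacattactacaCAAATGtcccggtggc
D630024D03Rik, chr11:31824498-31824797, minus strand: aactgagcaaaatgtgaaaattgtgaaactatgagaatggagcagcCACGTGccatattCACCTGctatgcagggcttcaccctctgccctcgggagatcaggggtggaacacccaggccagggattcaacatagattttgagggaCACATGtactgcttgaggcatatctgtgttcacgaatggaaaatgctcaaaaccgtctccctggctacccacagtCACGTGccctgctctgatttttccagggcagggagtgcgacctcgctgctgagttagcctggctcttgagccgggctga
A730036I17Rik, chr2:129218719-129219018, plus strand: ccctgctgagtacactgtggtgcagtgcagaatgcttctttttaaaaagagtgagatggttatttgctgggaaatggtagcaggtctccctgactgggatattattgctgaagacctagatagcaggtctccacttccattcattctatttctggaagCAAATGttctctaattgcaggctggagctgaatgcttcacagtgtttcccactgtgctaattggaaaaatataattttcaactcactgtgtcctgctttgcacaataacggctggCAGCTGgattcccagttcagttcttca
2310020H05Rik, chr13:99087872-99088171, minus strand: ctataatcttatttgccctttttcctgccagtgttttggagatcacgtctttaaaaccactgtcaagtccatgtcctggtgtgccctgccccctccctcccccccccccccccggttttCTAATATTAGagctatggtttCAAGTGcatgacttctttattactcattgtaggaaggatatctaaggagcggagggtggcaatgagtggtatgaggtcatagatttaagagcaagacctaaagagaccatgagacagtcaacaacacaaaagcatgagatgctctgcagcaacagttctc

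Gm12319, on chromosome 11 (70654741 to 70656493), was lower in every soleus library. It had 10.2, 14.6, and 15.0 normalized CPM in EDL 1 to 3, 18.4, 18.6, and 16.4 in psoas 1 to 3, and 3.42, 2.15, 0.877, and 2.64 in soleus 1 to 4. All soleus libraries lay below the others. Its log2 fold change was -2.53 ± 0.31 vs. EDL (adjusted p = 0.000448) and -2.96 ± 0.32 vs. psoas (adjusted p = 0.000198), and both calls were kept without each library in turn. Gm12319 lies 709 bp from Eno3, the muscle enolase of glycolysis, on the opposite strand, and 97 bp from Pfn1, which encodes the actin-binding protein profilin 1. Eno3 had 3145 to 5185 normalized CPM in EDL, 4778 to 6389 in psoas, and 1221 to 2280 in soleus. It was called in soleus vs. psoas (log2 fold change -1.70 ± 0.30, adjusted p = 0.00314) but not in soleus vs. EDL (-1.17 ± 0.29, adjusted p = 0.0191), and Pfn1 did likewise (-1.14 ± 0.17, adjusted p = 0.00115, and -0.77 ± 0.17, adjusted p = 0.00999, under a fold of 2).

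Gm26764 and Gm10605 were also lower in soleus. Gm26764, on chromosome 12 within the span of Sptlc2 on the opposite strand, had 8.59, 5.45, and 16.0 normalized CPM in EDL 1 to 3, 22.9, 7.86, and 8.57 in psoas 1 to 3, and 3.15, 1.47, 1.67, and 1.27 in soleus 1 to 4. These were log2 fold changes of -2.42 ± 0.48 vs. EDL (adjusted p = 0.00662) and -2.83 ± 0.49 vs. psoas (adjusted p = 0.00286), with no overlap of soleus with either. Without soleus 2, the adjusted p was 0.0239 and 0.0130, and without psoas 1 the log2 fold change vs. psoas was -2.16. Gm10605, on chromosome 7 opposite Tpbgl, had 0.887 to 2.64 in EDL, 4.31 to 6.25 in psoas, and 0.319 to 1.09 in soleus, and was called in soleus vs. psoas (-2.93 ± 0.42, adjusted p = 0.000985), without loss when a library was left out. Exons of Gm10605 and Tpbgl overlap, and with the strand setting of the counting not given, their reads cannot be told apart.

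A pair of lincRNAs near Cul3 on chromosome 1 was higher in psoas than in soleus. 9830004L10Rik (80184719 to 80192073) and 2310015K22Rik (80225044 to 80228792) lie 32971 bp apart on the same strand. 9830004L10Rik had 4.93, 5.83, and 0.637 normalized CPM in psoas 1 to 3, 0.911, 1.43, and 0.549 in EDL 1 to 3, and at most 0.274 in soleus (log2 fold change of soleus vs. psoas -5.05 ± 0.90, adjusted p = 0.00349). 2310015K22Rik had 3.32, 2.66, and 5.10 in psoas 1 to 3, 0.817, 0.792, and 3.73 in EDL 1 to 3, and 0.0797 to 0.684 in soleus (-2.94 ± 0.63, adjusted p = 0.00922). In psoas 3 the former was low and the latter at its highest, so that the libraries of psoas ordered the pair differently. Both calls were lost without psoas 2 (adjusted p = 0.0170 and 0.0197), and the log2 fold change of 9830004L10Rik was -5.74 without soleus 1 and -4.39 without soleus 2. B230312C02Rik, on chromosome 2 (180370491 to 180385885), had 11.7, 11.2, and 27.5 in psoas 1 to 3, 12.8, 2.45, and 18.5 in EDL 1 to 3, and 0.877 to 2.67 in soleus, and was called in soleus vs. psoas (-3.37 ± 0.62, adjusted p = 0.00427). Its adjusted p was 0.0184 without soleus 2.

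The nuclear lincRNAs Malat1 and Neat1 were called lower in soleus than in EDL, but the EDL libraries stood apart from each other. Malat1, on chromosome 19 (5795690 to 5802672), had 4075, 3818, and 438 normalized CPM in EDL 1 to 3, 737, 548, and 480 in psoas 1 to 3, and 365, 311, 403, and 431 in soleus 1 to 4. EDL 1 and 2 stood far above every other library, and EDL 3 lay below all psoas libraries and just above the soleus libraries. Soleus vs. EDL had a log2 fold change of -2.88 ± 0.55 (adjusted p = 0.00524) and psoas vs. EDL one of -2.24 ± 0.60 (adjusted p = 0.0357). The call was lost without any single one of EDL 1, EDL 2, and the soleus libraries (adjusted p up to 0.0249). It was -1.45 (adjusted p = 0.168) with read trimming as a covariate and -0.26 (adjusted p = 0.758) with EDL 3 as the single EDL library.

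Neat1 lies 22036 bp from Malat1 on the same strand (5824708 to 5845478), and EDL 1 and 2 again stood above every other library. It had 336, 314, and 77.8 normalized CPM in EDL 1 to 3, 124, 91.2, and 114 in psoas 1 to 3, and 39.9, 51.2, 58.7, and 63.5 in soleus 1 to 4. The log2 fold change of soleus vs. EDL was -2.19 ± 0.39 (adjusted p = 0.00384), and it was -0.59 (adjusted p = 0.348) with EDL 3 as the single EDL library. The call was lost without any single one of EDL 1, EDL 2, soleus 1, soleus 2, and soleus 4 (adjusted p up to 0.0201). Of the genes for paraspeckle proteins (16 of 16 measured) and speckle proteins (14 of 14), none was called in any comparison by edgeR, with 1 to 2 and 2 to 6 at an unadjusted p under 0.05. The summed level of the speckle genes was 800, 757, and 561 in EDL 1 to 3 and 512 to 633 elsewhere, and that of the paraspeckle genes was 486 to 584 in all libraries.

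The split of EDL reached other members. Both EDL 1 and EDL 2 were over 2 times EDL 3 in 36 of the 133 lincRNAs (27.1%), beside 11.7% of all genes, and in 14 of the 75 members over 2 CPM in all muscles. The members that passed the level rule through EDL alone had to be high in some EDL library, so the count over all 133 is in part set by that rule. The opposite, EDL 3 over 2 times both others, was seen in 4 members (3.01%), beside 2.15% of all genes. In psoas, where replicates 1 and 2 were also read-trimmed by the authors before alignment and replicate 3 was not, 5 members (3.76%) were over 2 times psoas 3 in both, beside 7.52% of all genes, and 15 (11.3%) had psoas 3 over 2 times both others, beside 2.54% of all genes. Among the 75 members over 2 CPM in all muscles, each of these psoas patterns was seen in 2 (2.67%). The larger count with psoas 3 high was thus not seen in them, and whether over all 133 it is in part set by the level rule was not tested. In both muscles replicates 1 and 2 were male and trimmed and replicate 3 was female and untrimmed. The study also lists lower base quality for replicates 1 and 2, and more reads with multiple alignments (in psoas for left reads only). The totals were 44147498 and 47825953 counts in EDL 1 and 2 and 15016122 in EDL 3. Trimming, sex, and these read properties thus cannot be told apart within EDL or within psoas. Lars2 took 9.25% of counts in EDL 1 and 0.0760% in EDL 2, and so did not follow Malat1. Marker lists also moved within EDL. In EDL 1 to 3, the 8 fibroblast genes summed to 4025, 3637, and 2417, the 7 macrophage genes to 151, 167, and 71.4, and the 7 endothelial genes to 257, 220, and 148. The 6 erythroid genes summed to 73.8, 40, and 5.82, and the 7 adipocyte genes to 189, 222, and 106. Most of the adipocyte sum came from Fabp4, with a mean of 152 in EDL, beside 12.1 for Cfd, the next highest. The 9 fast myofiber genes ran the other way, with 77844, 74832, and 106830, and the 10 tendon genes moved little, with 832, 866, and 807. The part of these cells in the lincRNA values was not tested.

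A group of members with a common sequence followed Malat1. Gm26547 (chromosome 17, 55557166 to 55563507), Gm26686 (chromosome 1, 128770599 to 128774421), Gm17644 (chromosome 1, 12667563 to 12673090), and Gm43056 (chromosome 5, 86683850 to 86686640) lie far apart, but share 584 to 814 31-base words in pairs. The longest stretch that is identical in transcripts of all 4, on the same strand, is 255 bases long and is shown because reads from it cannot be assigned to 1 locus. It was taken from the GENCODE M21 transcripts.
Shared stretch: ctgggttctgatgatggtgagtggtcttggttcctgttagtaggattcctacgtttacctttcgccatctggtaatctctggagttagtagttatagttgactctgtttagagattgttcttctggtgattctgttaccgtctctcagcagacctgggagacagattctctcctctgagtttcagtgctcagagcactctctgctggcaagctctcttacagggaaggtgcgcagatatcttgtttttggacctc

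Gm26547 had 20.1, 18.5, and 5.99 normalized CPM in EDL 1 to 3, 8.36, 6.21, and 5.66 in psoas 1 to 3, and 3.28, 3.26, 4.23, and 6.23 in soleus 1 to 4. Gm26686 had 17.4, 17, and 5.33 in EDL 1 to 3, Gm17644 had 16.6, 16.8, and 5.27, and Gm43056 had 17.2, 14.0, and 5.0. In each of the 4, EDL 1 and 2 were the highest libraries, and EDL 3 was under 6 normalized CPM. Gm26547 (log2 fold change -1.82 ± 0.38, adjusted p = 0.00795) and Gm26686 (-1.79 ± 0.35, adjusted p = 0.00588) were called in soleus vs. EDL, and Gm17644 (adjusted p = 0.0102) and Gm43056 (0.0121) were not. Both calls were lost without EDL 1 (adjusted p = 0.0361 and 0.0271) or EDL 2 (0.0398 and 0.0334), among other libraries. Reads of the stretch match all 4 loci, and whether such reads were counted is not given, so the calls of these loci may not be independent.

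**Figure D3:**
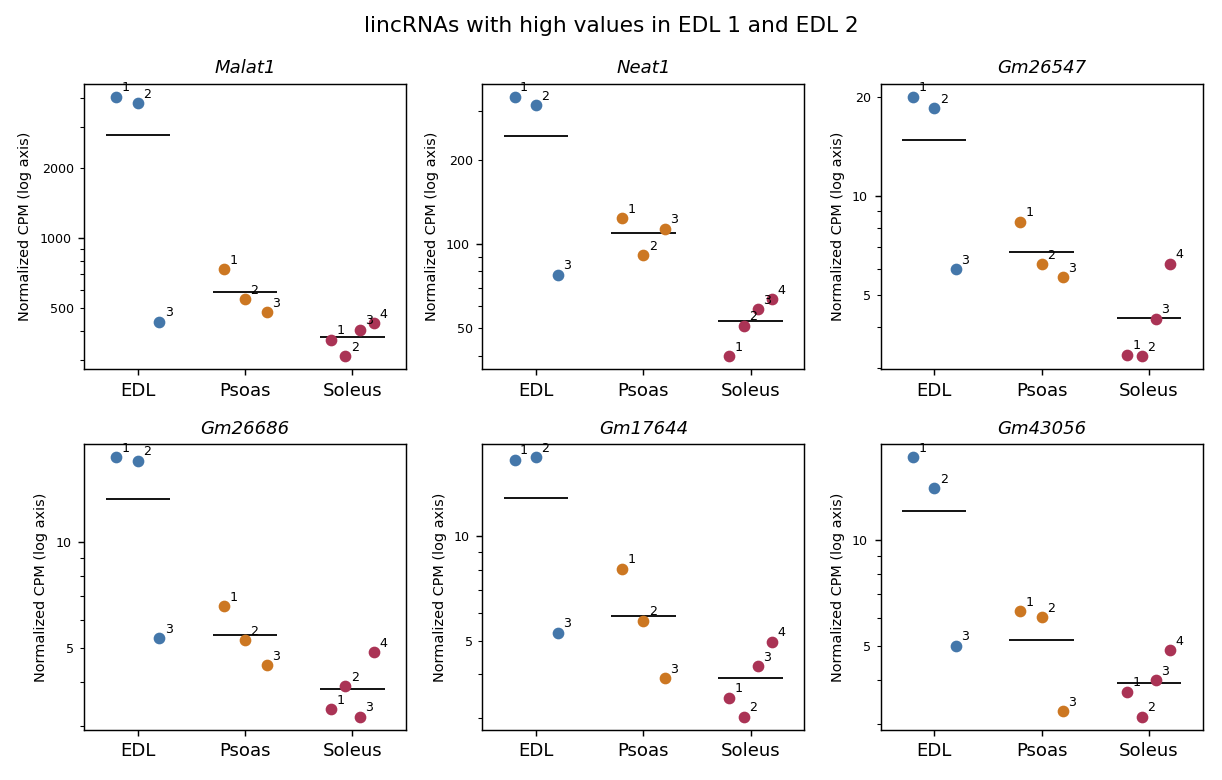
Normalized CPM (log axes) of Malat1, Neat1, and 4 lincRNAs with a common stretch of sequence. Each numbered point is 1 library, the lines are means, and in each panel EDL 1 and EDL 2 lie above all other libraries, while EDL 3 lies among those of psoas or soleus or between them.

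The hosts of miRNAs other than Gm28653 did not pass the test in any comparison. 6720427I07Rik, the host of the let-7 miRNAs, had 17.3, 18.8, and 2.58 normalized CPM in EDL 1 to 3, 2.37, 8.18, and 4.32 in psoas 1 to 3, and 1.28 to 2.90 in soleus (soleus vs. EDL -2.51 ± 0.59, adjusted p = 0.0142). E130102H24Rik had 3.41, 2.79, and 0.714 in EDL 1 to 3 and at most 0.761 elsewhere (-2.18 ± 0.51, adjusted p = 0.0144). In both, EDL 1 and 2 were high and EDL 3 was not. 2900076A07Rik had 6.80 to 10.9 in EDL, 11.9 to 13.1 in psoas, and 7.60 to 12.0 in soleus.

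Some lincRNAs were higher in all 3 EDL libraries. 2310008N11Rik, on chromosome 8 (26814593 to 26884380), had 4.67, 5.65, and 9.61 normalized CPM in EDL 1 to 3, 0.343, 1.33, and 0.637 in psoas 1 to 3, and 0.137, 0.927, 0.877, and 0.158 in soleus 1 to 4. EDL 3 was here the highest. Against EDL it was -3.59 ± 0.60 on the log2 scale in soleus (adjusted p = 0.00249), which was kept without each library in turn, and -3.17 ± 0.65 in psoas (adjusted p = 0.0136, not called). Miat, on chromosome 5 (112213228 to 112229395), a nuclear RNA that binds splicing factors, had 2.87, 1.73, and 1.87 in EDL 1 to 3, 0.0528, 0, and 0.212 in psoas 1 to 3, and 0.342, 0.239, 0.0797, and 0.422 in soleus 1 to 4. Each psoas library held at most 3 counts of it. Against the floor of 3 counts per library, EDL was 13.4-fold higher than psoas (adjusted p = 0.00357). This is not a lower bound, since some psoas libraries held counts and the floor is set for a count of 0. The log2 fold change of soleus vs. EDL was -2.95 ± 0.54 (adjusted p = 0.00406). The calls were lost without EDL 1 (adjusted p = 0.0190 and 0.0248) or EDL 2 (0.0132 and 0.0144), and also without either of psoas 1 and 2 or of soleus 1 and 2, respectively.

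5031425E22Rik, which starts 172 bp from Kmt2e on the opposite strand, was a smaller but even difference. It had 14.1, 13.6, and 10.4 normalized CPM in EDL 1 to 3, 8.71 to 9.26 in psoas, and 5.26 to 6.36 in soleus, with no overlap between any of the muscles. Soleus vs. EDL was called (-1.12 ± 0.16, adjusted p = 0.001) and kept without each library in turn, but lost with read trimming as a covariate (adjusted p = 0.0123). Other members called lower in soleus than in EDL were 5430416N02Rik (-1.71 ± 0.33, adjusted p = 0.00552) and 3222401L13Rik (-1.69 ± 0.33, adjusted p = 0.00591), each lost in 6 of the 10 fits without 1 library. Gm26581 (-4.16 ± 0.79, adjusted p = 0.00494) had 2.01, 3.54, and 0.439 in EDL 1 to 3 and 0.0299 to 0.319 in soleus, 90.9% of its words were found in other genes, and its log2 fold change was -3.44 without EDL 2 (adjusted p = 0.0284) and -5.0 without soleus 3.

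The psoas vs. EDL calls were the least firm. Besides Miat and 4930429F24Rik they were Snhg18, a snoRNA host on chromosome 15 with 3.60, 2.28, and 3.90 normalized CPM in EDL 1 to 3 and 1.01 to 1.13 in psoas (-1.61 ± 0.30, adjusted p = 0.00941), and Gm16907, with 3.64, 3.17, and 1.26 in EDL 1 to 3 and 0.317 to 0.708 in psoas (-2.54 ± 0.48, adjusted p = 0.00956). The groups did not overlap in any of the 4. None of the 4 calls was kept in each fit without 1 library, and Snhg18 and Gm16907 were each lost in 9 of 10 (adjusted p up to 0.0406 and 0.0431, both without EDL 1). The other snoRNA hosts among the members, Snhg6 and Snhg12, did not pass the test, with means of 4.89 ± 1.45, 5.78 ± 2.96, and 3.63 ± 1.09 for Snhg6 and 1.79 ± 0.298, 1.40 ± 0.808, and 1.89 ± 0.636 for Snhg12 in EDL, psoas, and soleus (SD, n = 3, 3, and 4).

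The coding genes near the lincRNAs were read in the same fit. Of the 133 members, 24 overlap a protein-coding gene of the files, 31 others lie within 5 kb of one, of which 17 are divergent from it, and 41 are farther than 50 kb away. The exons of 42 members overlap those of another gene. The nearest coding gene was itself called for 0 of the 4 lincRNAs called in psoas vs. EDL, 1 of 21 in soleus vs. EDL, and 1 of 13 in soleus vs. psoas. Of all genes, 2.11%, 5.77%, and 5.69% were called. With so few lincRNAs, these counts cannot show whether neighbors change with them or not. The log2 fold change of the nearest coding gene had the sign of the lincRNA in 4, 14, and 8 of them, and no background of other gene pairs was counted. Cryba4, a lens crystallin gene 17098 bp from Miat, was called opposite to it in soleus vs. EDL (3.20, adjusted p = 0.0050), with 1.04 to 1.32 normalized CPM in soleus and 0.113 to 0.165 in EDL. Pfn1 fell together with Gm12319 in soleus vs. psoas.

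The reverse also occurred, with a coding gene called beside a lincRNA that was not. A430046D13Rik starts 679 bp from Myl6b, a myosin light chain of slow muscle, on the opposite strand. Myl6b had 0.163 to 0.220 normalized CPM in EDL, 0.132 to 0.354 in psoas, and 2.87 to 10.7 in soleus, and was called in both comparisons of soleus (log2 fold change 5.22 ± 0.53 and 5.15 ± 0.56). A430046D13Rik had 11.2 to 15.4, 12.3 to 16.2, and 10.7 to 16.0, with log2 fold changes of 0.05 ± 0.19 vs. EDL (adjusted p = 0.863) and -0.09 ± 0.19 vs. psoas (adjusted p = 0.791). Arpp21, which overlaps 2900079G21Rik and 2310075C17Rik on the opposite strand, was called higher in soleus than in EDL (2.24, adjusted p = 0.000829) and than in psoas (2.18, adjusted p = 0.000976). Neither lincRNA was called, with log2 fold changes of 0.97 (adjusted p = 0.283) and 1.22 (0.245) for 2900079G21Rik and of 0.76 (0.533) and 2.33 (0.127) for 2310075C17Rik.

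**Figure D4:**
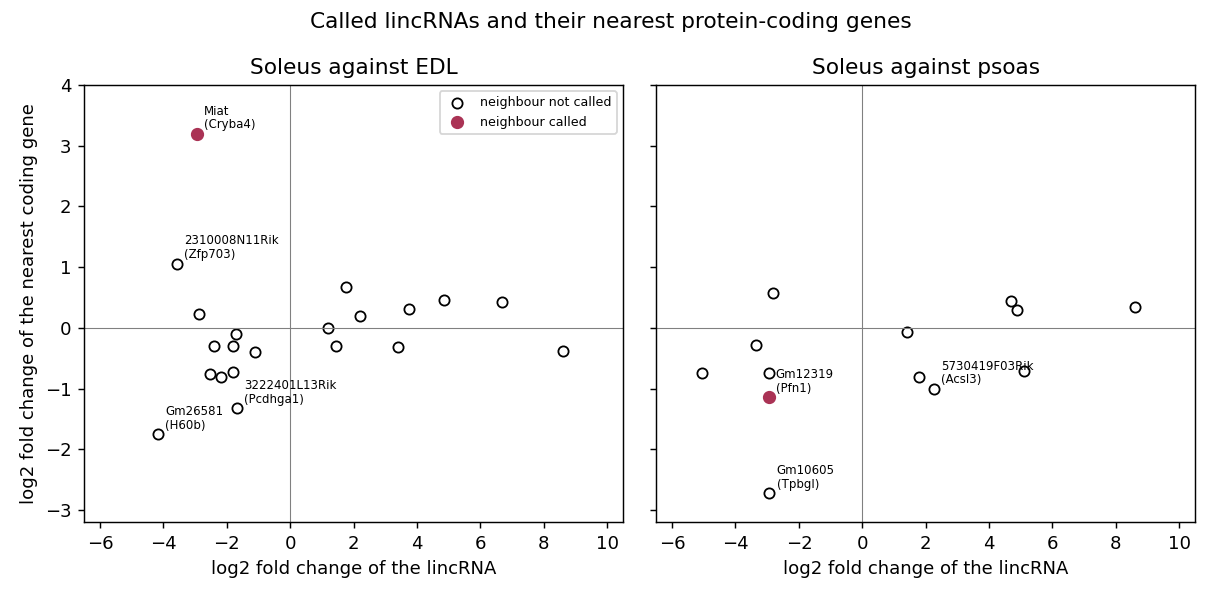
Log2 fold changes of called lincRNAs (horizontal) and of their nearest protein-coding genes (vertical), for the 21 lincRNAs called in soleus vs. EDL (left) and the 13 called in soleus vs. psoas (right). Filled points mark a coding gene that was also called, Cryba4 on the left and Pfn1 on the right, most coding genes lie between -1 and 1, and the point farthest right in each panel is A730036I17Rik, whose fitted value depends on the prior count.

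A few members moved together in libraries that carry the same animal code. Gm47854, on chromosome 9 (51621425 to 51655127), had 166, 66.1, and 66.6 normalized CPM in EDL 1 to 3. In psoas it had 139 and 305 in replicates 1 and 2 and 0.283 in psoas 3, and in soleus 72.0, 24.7, and 88.4 in replicates 1 to 3 and 0.211 in soleus 4. Psoas 3 and soleus 4 carry the same animal code, and both were nearly without reads of this gene. No comparison of muscles passed the test (adjusted p from 0.47 to 0.839). Gm47854 shares exons with the pseudogene Gm7293, and 38.6% of its words occur in other genes.

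In the same 2 libraries 2810429I04Rik, on chromosome 13, had 4.32 and 4.28 normalized CPM, against 0.554 and 0.0634 in psoas 1 and 2 and 0, 1.88, and 0.558 in soleus 1 to 3. 2900079G21Rik showed it more weakly, with 2.20 and 4.33 against at most 0.697 and 1.94. In EDL 3 and soleus 2, also of 1 animal, Gm7967 was low, with 0.769 and 0.419 against 3.15 and 8.31 in the other EDL libraries and 1.48 to 5.13 in the other soleus libraries. In psoas 1 and soleus 1, D630024D03Rik, Gm5420, and 2310075C17Rik lay under 0.5 times the other libraries of their muscles. For D630024D03Rik, psoas 1 and 2 lay at or under the level of 3 counts (0.0792 and 0.190), so that its pattern in psoas rests on very few counts. In all, both libraries of an animal lay under 0.5 times the others of their muscles in 3, 1, and 1 members for psoas 1 and soleus 1, EDL 3 and soleus 2, and psoas 3 and soleus 4, beside 0.31%, 0.484%, and 0.869% of all genes. They lay over 2 times the others in 0, 0, and 2 members, beside 0.41%, 0.106%, and 0.0931%. These members were chosen for this pattern, and it was not tested.

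**Figure D5:**
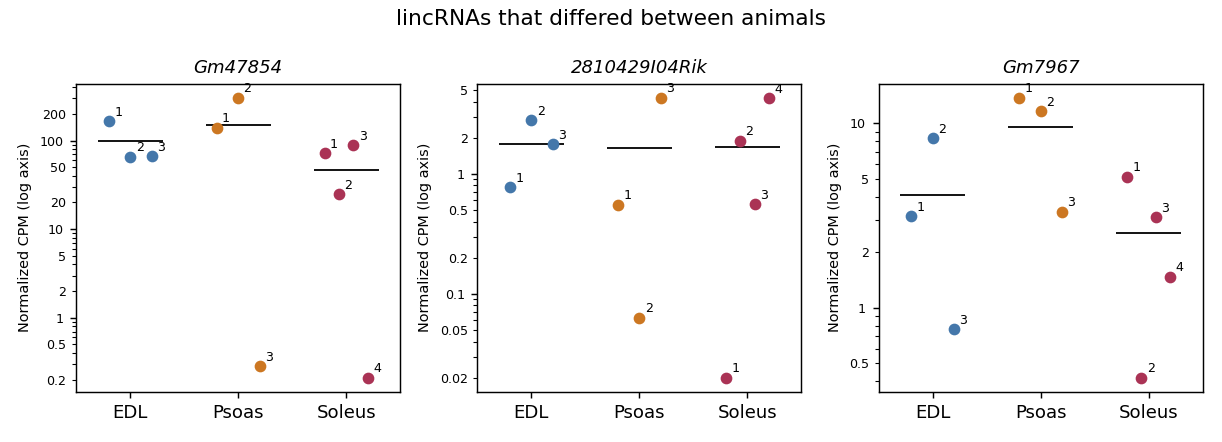
Normalized CPM (log axes) of Gm47854, 2810429I04Rik, and Gm7967. Each numbered point is 1 library, the lines are means, a count of 0 is drawn at 0.02, psoas 3 and soleus 4 carry 1 animal code, and EDL 3 and soleus 2 carry another.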

How the data were processed

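RNA-seq was done on 3 EDL, 3 psoas, and 4 soleus samples. The authors trimmed 4 libraries with Trimmomatic 0.32, aligned with TopHat2 2.1.1 to GRCm38.p4, counted reads per gene in R, and deposited raw counts of 16112 genes, each reaching 10 reads in 3 or more samples. How reads with several alignments and strands were counted is not given in the sources used here. Both can move the values of lincRNAs that share sequence or overlap other genes.

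Muscles were taken from the sample labels. Counts were fitted with edgeR 4.0.16 (TMM, quasi-likelihood test, all genes, no covariate) in R 4.3.3. DESeq2 1.42.0 and limma 3.58.1 (voom) were alternatives. Replicate numbers were not taken as pairs. Samples of 1 animal code are not independent, and p-values measure the spread between these samples. The fit was tested on simulated data. 31-base words, neighbors, and coordinates came from GENCODE M21, which gives a symbol for 16032 of the genes.

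The members and lists were chosen with earlier results of these data known. LincRNAs were named by a rule (the 10 highest by mean CPM, up to 6 called per direction and comparison, role lists, those at the level limit, and coding neighbors). 1810058I24Rik, 4632428C04Rik, 5031425E22Rik, 3222401L13Rik, 5430416N02Rik, Gm26547, Gm26686, Gm17644, Gm43056, Tmem250-ps, Gm10076, Gm7967, Gm5420, 2900079G21Rik, 2310075C17Rik, A430046D13Rik, Eno3, Myl6b, and Arpp21 were named after their values were seen. Alternatives left out a library, changed the scaling, filter, level rule or tool, or added a covariate, and EDL 3 as the single EDL library was added after seeing the data.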

Additional observations from a re-analysis of the deposited data

How the results depend on the processing

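The number of called lincRNAs depended on the setting. The shares of all genes called in these settings are not given here, so whether the shifts are particular to lincRNAs is not known. For psoas vs. EDL (4), it was 0 with the 2 muscles alone, 9 with DESeq2, 1 at a limit of 5 CPM, 2 with the limit on the mean of the muscles, 1 with 2 CPM required in each muscle, and 0 to 12 without 1 library, with 12 without EDL 3. For soleus vs. EDL (21), it was 7 with read trimming as a covariate, 44 with DESeq2, 10 with 2 CPM required in each muscle, and 9 (without EDL 1) to 39 (without EDL 3) without 1 library. For soleus vs. psoas (13), it was 21 with DESeq2, 8 with limma-voom, 3 with 2 CPM required in each muscle, and 7 to 16 without 1 library. With EDL 3 as the single EDL library, which assumes that it varies like the other groups, 0, 0, and 13 were called, the first 2 with fewer samples. With the replicate block, the counts were 1, 11, and 7. Same-numbered libraries correlated in their deviations by 0.248, 0.088, and 0.503 in psoas vs. EDL, where they also share age, sex, and trimming, by 0.336, -0.153, and -0.036 in soleus vs. EDL, and by 0.34, -0.234, and -0.076 in soleus vs. psoas. In no comparison did every same-numbered pair pass 0.1, so the numbers were not taken as pairs, and a call lost under the block is no weaker effect. Libraries of the same animal code correlated by 0.34 (psoas 1 and soleus 1), 0.381 (psoas 3 and soleus 4), and 0.187 (EDL 3 and soleus 2). The edgeR fit has no term for the animal. With animal code as a random effect in limma-voom, 4, 19, and 10 were called, 2, 15, and 9 of them shared with the edgeR calls, and Gm28653 (both comparisons of soleus), D630024D03Rik, 9830004L10Rik, and B230312C02Rik in soleus vs. psoas, and Malat1 and Neat1 in soleus vs. EDL were among those lost (adjusted p from 0.0102 to 0.0244). Of the 38 calls, 13 were kept in each fit without 1 library, and 2 passed in every alternative. No log2 fold change changed sign in 759 refits, of which 225 missed the threshold. Without Malat1, the share of counts differed by -0.0523 percentage points in psoas vs. EDL and -0.0664 in soleus vs. EDL. The cause of these shifts was not tested. Upper-quartile scaling put the median of all genes at -0.14 in soleus vs. EDL.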

Other observations

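Among the noncoding RNAs on the role lists that the rule did not take, Hotair, a lincRNA of the Hoxc cluster, had 0.420, 0.358, and 0.275 normalized CPM in EDL 1 to 3, no count in any psoas library, and 0.616, 0.867, 0.558, and 0.633 in soleus 1 to 4. It was called in psoas vs. EDL (adjusted p = 0.00615) and soleus vs. psoas (adjusted p = 0.000869) and stayed under 2 CPM in each muscle. Kcnq1ot1, a nuclear antisense RNA that silences imprinted neighbors, had 64.4, 77.5, and 13.6 in EDL 1 to 3, 17.3 to 31.1 in psoas, and 6.77 to 13.0 in soleus, with EDL 1 and 2 apart from EDL 3 as in Malat1. Rpph1, the RNA of ribonuclease P, had 604, 994, and 51.2 in EDL 1 to 3, 47.9 to 121 in psoas, and 68.3 to 185 in soleus. Tug1, a nuclear and cytoplasmic RNA, had 25.4, 26.7, and 28.9 in EDL 1 to 3 and did not show the split.

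Of the 199 autosomal lincRNAs under 2 CPM, 1 was called in psoas vs. EDL (0.503%, beside 2.11% of all genes), 13 in soleus vs. EDL (6.53%, beside 5.77%), and 8 in soleus vs. psoas (4.02%, beside 5.69%).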
